A study of Sus scrofa with 6 samples.

Results

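The most abundant long non-coding RNAs (lncRNAs) of Bama pig skin were taken as the rows of the lncRNA table with a mean FPKM of at least 10 over the 6 samples. FPKM is the number of fragments scaled to transcript length and to the mapped reads of the sample, so levels of different transcripts are compared here per length. One row of chromosome Y and TCONS_00077941 were left out, which gave 79 of 7566 lncRNAs (1.04%). The level itself chose them, so their high FPKM is a description and was not tested.

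RNA-seq was run on skin of 3 female Bama pigs aged 2 years, sampled to a depth of 8 mm. Each pig gave 1 sample of white skin from the back and 1 of black skin from the buttock (n = 3 per skin). The labels give no treatment for either skin, and the pigs were of the same breed and reared alike. Skin color and body site differ together, so their effects cannot be told apart. Poly(A) RNA was enriched and the libraries kept the strand of the transcript. In such pieces of whole skin, fewer cells of a type and less RNA per cell cannot be told apart.

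LncRNAs are usually defined as transcripts of more than 200 bp that are not translated into a known protein. Some stay in the nucleus and organise nuclear bodies, some act on the gene next to them, and for many no function is known. Most are found at far lower levels than mRNAs and in few tissues, and a small number of very abundant ones holds much of the lncRNA pool of a tissue. Assembly from short reads also yields single-exon fragments within introns, at the ends of coding genes and at repeats, which are listed as lncRNAs when they show no coding potential.

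The tissue was checked by marker genes of the mRNA table. Of 6 melanocyte genes, 5 were lower in white skin. The summed FPKM of the 6 was 0.298 to 1.23 in white and 29.0 to 166 in black skin. TYR was not among the 5, and was listed at 0 in all white samples and in black skin of pig 3. Adipocyte genes summed to 242 to 640 in white and 1130 to 2291 in black skin, fibroblast genes to 2244 to 4805 and 5888 to 10265, endothelial genes (2 of 3 found) to 24.0 to 29.2 and 64.7 to 133, and immune genes to 4.95 to 8.30 and 12.9 to 35.1. In white skin, limma called 4 of 5 adipocyte, 1 of 5 fibroblast, 2 of 2 endothelial and 1 of 3 immune genes lower. The immune sum came mostly from CD68, and PTPRC and CD3E overlapped between the skins. In the opposite direction, the muscle genes that were found (2 of 6) summed to 29.8 to 66.4 in white and 1.41 to 5.01 in black skin. CKM made up nearly all of the muscle sum, and ACTA1 had at most 1.77 FPKM and overlapped between the skins. The keratinocyte genes KRT1 and KRT10 summed to 43.1 in white skin of pig 2 and to 246 to 609 in the other samples, and KRT5 and KRT14 could not be linked to the table. Blood genes (2 of 3 found) summed to 73.2 to 327 in white and 211 to 557 in black skin. The part of these cell types in the differences of single lncRNAs was not tested.

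The abundant lncRNAs reached from 10.2 to 1287 FPKM on average, with 7 at 100 or more, 39 from 20 to 100 and 33 from 10 to 20. Their median was 25.3 FPKM, and that of all lncRNAs was 0.254. Of 14900 mRNAs, 52 were above the highest lncRNA, and 5204 (34.9%) had a mean of at least 10. The members nearest to the limit were TCONS_00112556 (10.3 FPKM) and the mitochondrial TCONS_00116376 (10.2 FPKM). Just below it lay TCONS_00041660 at 9.56, all of which came from 57.4 FPKM in white skin of pig 2, and TCONS_00014999 at 9.54, which was detected in all 6 samples.

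**Figure D1:**
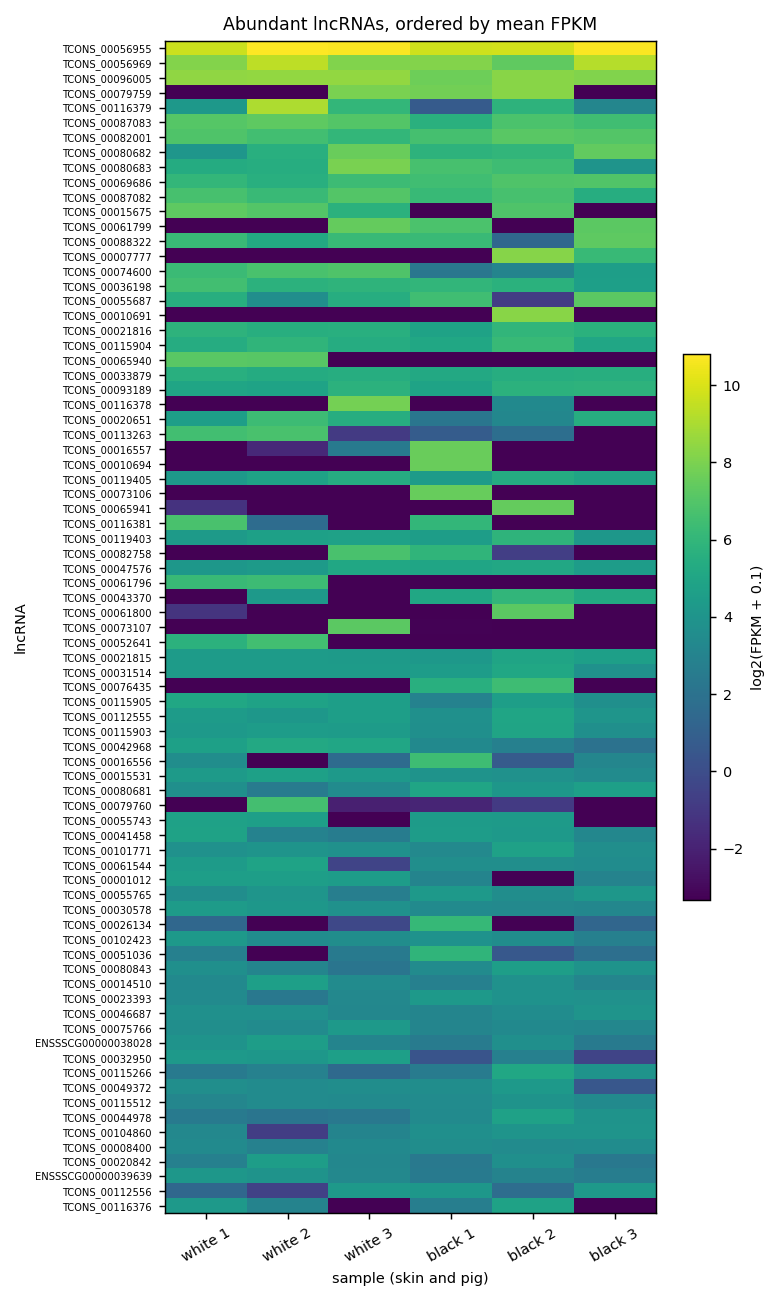
Level of the 79 abundant lncRNAs, 1 row each in the order of their mean FPKM, in the 6 samples (columns, skin and pig), with the color giving log2(FPKM + 0.1). The darkest cells are listed zeros, which occur in 27 rows and at all levels but the highest 3.

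TCONS_00056955 was the most abundant lncRNA. It lies on the minus strand at chr2:6808255-6809553 (Sscrofa11.1) and spans 1299 bp within the RefSeq lncRNA gene LOC100513133. Its FPKM was 802, 1776 and 1694 in white skin of pigs 1, 2 and 3 and 874, 895 and 1683 in black skin. The low and the high values fell in both skins, and the difference (log2 fold change 0.29, SE 0.79) was not significant (limma, Benjamini-Hochberg adjusted p = 0.876). TCONS_00056969 lies mostly within the same gene, at its edge, at chr2:6811088-6811742 on the same strand. It had 285, 659 and 276 FPKM in white and 294, 165 and 592 FPKM in black skin. The skins overlapped here too (log2 fold change 0.28, SE 0.69, adjusted p = 0.859 by limma with Benjamini-Hochberg adjustment). These neighbouring transcripts together held 23.1% to 51.4% of the FPKM of the abundant lncRNAs.

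TCONS_00096005 came next, on the plus strand at chr7:23933697-23935759, where it covers most of the RefSeq lncRNA gene LOC100624113 and lies inside the RefSeq locus of HSPA1L, a heat shock protein gene. It had 345, 362 and 365 FPKM in white and 204, 306 and 281 FPKM in black skin. Each white sample was above each black sample, but the difference was small beside the error of the fit (log2 fold change 0.46, SE 0.66, adjusted p = 0.741 by limma with Benjamini-Hochberg adjustment). HSPA1L itself had a mean of 0.255 ± 0.112 FPKM in white and 0.672 ± 0.131 in black skin (SD, n = 3), and HSP70.2, an inducible heat shock protein gene 5843 bp away, had 28.7 ± 5.15 and 24.8 ± 3.79.

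A pair of overlapping rows on chromosome 6, TCONS_00087083 and TCONS_00087082, share their end at position 85536155 within the RefSeq lncRNA gene LOC100621455. TCONS_00087083 had 133, 156 and 127 FPKM in white and 50.4, 110 and 88.2 in black skin, without overlap (log2 fold change 0.81, SE 0.60, adjusted p = 0.691 by limma with Benjamini-Hochberg adjustment). TCONS_00087082 had 102, 74.7 and 129 FPKM in white and 74.2, 102 and 43.7 in black skin, and the skins overlapped. Summed over the 4 rows of this locus, the level was 231 to 258 in white and 125 to 212 in black skin.

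Several of the highest rows lie inside coding genes of skin. TCONS_00082001, the shortest member at 65 bp, lies within PTMS, which encodes parathymosin, and had 65.8 to 121 FPKM in white and 98.4 to 145 in black skin. TCONS_00080682 and TCONS_00080683 lie within the locus of KRT6A, a keratin of hair follicles and of healing or proliferating epidermis. Their highest values were in white skin of pig 3, at 190 and 243 FPKM, and their lowest at 16.8 in white skin of pig 1 and 15.5 in black skin of pig 3. A further row in this locus, TCONS_00080681, had 12.9, 5.66 and 11.1 FPKM in white and 31.5, 17.5 and 24.8 in black skin, without overlap (log2 fold change -1.35, SE 0.56, adjusted p = 0.415 by limma with Benjamini-Hochberg adjustment). The keratin rows did not share a direction, and none of them passed the thresholds. TCONS_00069686 spans 3848 bp within the locus of RHOB, a small GTPase gene, and had 65.4, 48.7 and 82.7 FPKM in white and 88.6, 120 and 122 in black skin (log2 fold change -0.77, SE 0.58, limma adjusted p = 0.691). All of its black values were above its white values.

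The share of the summed lncRNA FPKM that the abundant lncRNAs held was 43.7%, 46.8% and 22.9% in white skin of pigs 1, 2 and 3 and 49.5%, 47.7% and 54.9% in black skin. The means were 37.8% ± 13.0 in white and 50.7% ± 3.72 in black skin (SD, n = 3). White skin of pig 3 stood apart, and in it TCONS_00077941 alone held 58.4% of the sum, against 10.6% and 17.3% in the other white samples and at most 0.963% in black skin. With TCONS_00077941 left out of the sum, the share was 53.5% ± 4.04 in white and 50.9% ± 3.55 in black skin, with all samples between 48.2% and 56.6%. The summed FPKM itself was 4829 ± 1002 in white and 4345 ± 298 in black skin and overlapped. Members under 200 bp held 8.22% to 33.0% of the members' sum, with the highest shares in black skin of pig 2 (33.0%) and of pig 1 (27.5%). No test was made on these shares, since the members were chosen by level.

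**Figure D2:**
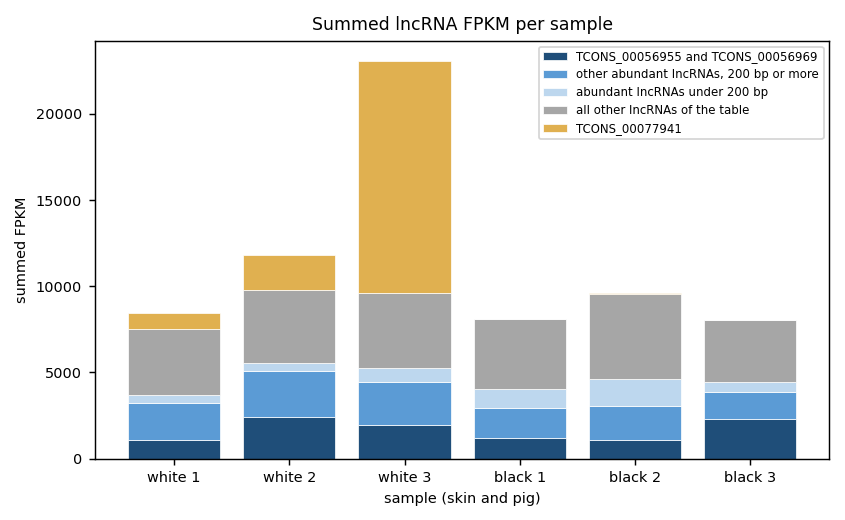
Summed FPKM of all 7566 lncRNAs in each of the 6 samples (bars, skin and pig), split into the pair of chromosome 2 transcripts, the other abundant lncRNAs of 200 bp or more, those under 200 bp, all other lncRNAs and TCONS_00077941. The 3 lowest parts of each bar together lie between 3681 and 5527 FPKM in all samples, while TCONS_00077941 adds the most in white skin of pig 3.

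The abundant lncRNAs were far from uniformly stable. Their median coefficient of variation (CV, the SD over the mean of the FPKM over the 6 samples) was 68.0%, with a range from 9.37% to 245%. Other lncRNAs with a mean of 1 to 10 FPKM (n = 900) had a median CV of 64.9%, and over the whole table it was 137%. Within a skin, the members' median CV was 40.5% in white and 56.3% in black skin. The highest sample was at most 2 times the lowest for 7 members and at most 3 times for 23.

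The most stable was TCONS_00033879, which had the lowest CV of all 7566 lncRNAs. It spans 23755 bp at chr14:141717708-141741462, where it covers most of the RefSeq lncRNA gene LOC100514924 and all of SYCE1, a gene of the synaptonemal complex of meiosis. It had 48.0, 40.8 and 44.2 FPKM in white and 36.5, 43.9 and 45.9 in black skin (CV 9.37%, log2 fold change 0.08, SE 0.56). TCONS_00008400, within the locus of the flippase subunit gene TMEM30B, had 7.22 to 10.9 FPKM in white and 10.98 to 11.96 in black skin (CV 16.2%). TCONS_00021815 lies within TRPV2, a cation channel gene, and had 20.9 to 21.7 FPKM in white and 18.6 to 30.2 in black skin (CV 18.0%). TRPV2 mRNA, in contrast, was at 1.80 to 2.92 FPKM in white and 4.37 to 8.55 in black skin, without overlap (log2 fold change -1.25, SE 0.33, adjusted p = 0.0605 by limma with Benjamini-Hochberg adjustment). These 3 lncRNAs were detected at like levels in every sample.

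At the other end, 27 members (34.2%) were listed at 0 in at least 1 sample, against 23.1% of the lncRNAs of mean 1 to 10 and 72.8% of all. More than 50% of the FPKM came from 1 sample for 21 members (26.6%), against 15.1% and 57.3%. The highest CV possible with 6 samples, 245%, was reached by rows found in 1 sample. TCONS_00010691 had 316 FPKM in black skin of pig 2, while TCONS_00010694 and TCONS_00073106 had 188 and 181 FPKM in black skin of pig 1, and all other samples were listed at 0. These members thus reached a mean of at least 10 through a single sample.

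Short members were the more variable ones. The 19 members under 200 bp had a median CV of 163%, 15 of them were listed at 0 somewhere, and 13 had more than 50% of their FPKM in 1 sample. Among the 60 members of 200 bp or more, the median CV was 52.5%, 12 were listed at 0 somewhere, and 8 had more than 50% in 1 sample. Most of the short members are rows of loci that hold several rows (described below), so they are not separate loci. Some of these loci hold rows on both strands, and whether the rows are separate transcripts was not tested. The short members alone at their locus, TCONS_00082001, TCONS_00080681, TCONS_00104860, TCONS_00088322 and TCONS_00026134, had CVs of 26.3%, 55.0%, 55.9%, 73.3% and 224%. The part of shared loci in the spread was not tested. Length enters FPKM as a divisor, so a short row reaches a given FPKM with fewer fragments. The number of fragments behind each value is unknown, and its part in the spread was not tested.

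**Figure D3:**
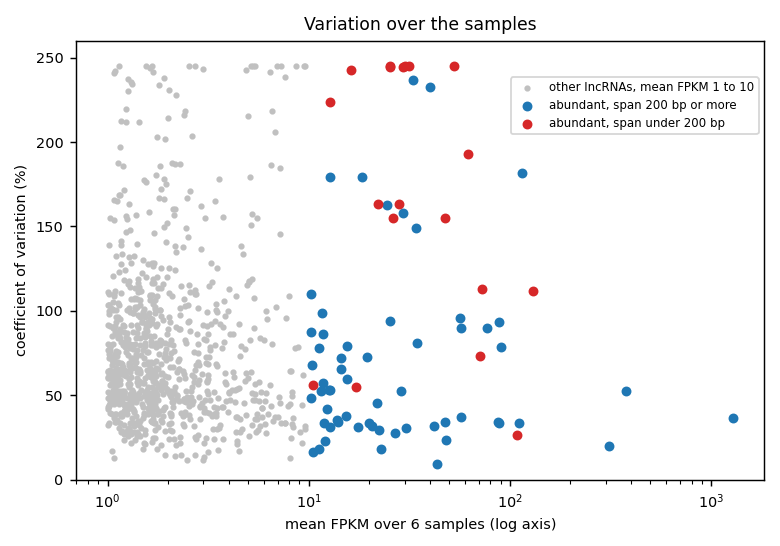
Coefficient of variation over the 6 samples (vertical axis, percent) against the mean FPKM (horizontal log axis) for the abundant lncRNAs of 200 bp or more (blue), those under 200 bp (red) and the 900 other lncRNAs with a mean of 1 to 10 FPKM (grey). Red points lie mostly above 100%, and the most stable lncRNA, at 9.37%, is blue.

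The span from first to last position had a median of 855 bp among the members, against 500 bp over all lncRNAs and 1162 bp over those of mean 1 to 10. Spans under 200 bp made up 24.1% of the members, 28.4% of all lncRNAs and 12.7% of those of mean 1 to 10. Such rows are listed as lncRNAs but fall short of the usual length given above. Spans of 5000 bp or more made up 13.9%, 20.6% and 18.9%. The longest was TCONS_00055687 with 27029 bp. On the plus strand lay 44 members and on the minus strand 35 (55.7% plus, against 51.0% of all). Of the members, 56 overlapped a RefSeq gene, of which 35 overlapped a coding gene and 23 an annotated lncRNA gene (8 of them both), and 4 lay on the mitochondrial genome. A further 17 overlapped no gene, and 6 lay on unplaced scaffolds. An Ensembl identifier was carried by 2 members (2.53%), against 64 (0.846%) of all lncRNAs. ENSSSCG00000038028 overlaps C16H5orf38 and lies 531 bp from IRX2, a homeobox gene, and had 8.21 to 23.0 FPKM in white and 5.55 to 12.7 in black skin. ENSSSCG00000039639 lies 101 bp from CSPP1, a gene of the centrosome and cilium, and had 17.7, 15.2 and 9.53 FPKM in white and 5.41, 7.89 and 6.24 in black skin (log2 fold change 1.08, SE 0.55, adjusted p = 0.664 by limma with Benjamini-Hochberg adjustment).

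Many members were not separate loci. When rows that each cover at least 80% of the other, on either strand, were taken as 1 locus, the 79 members fell into 61 loci. Of the members, 38 (48.1%) shared their locus with another row of the table, against 18.4% of all lncRNAs, and 28 shared it with another member. Rows of a locus on the same strand share nearly all of their positions, and how fragments were divided among them was not tested.

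The clearest case was chr3:6159236-6159408, which holds 5 members, 3 on the plus and 2 on the minus strand. White skin of pigs 1 and 2 had only TCONS_00065940 (148 and 139 FPKM) and TCONS_00061796 (76.2 and 80.7 FPKM) above 1 FPKM. White skin of pig 3 and black skin of pigs 1 and 3 had TCONS_00061799 alone, at 176, 113 and 149 FPKM. In black skin of pig 2, TCONS_00065941 and TCONS_00061800 had 176 and 152 FPKM. The 6 samples thus showed 3 patterns of rows within the same 173 bp, and the median CV of the rows was 155%. Summed over both strands, the locus had 224.4, 219 and 176 FPKM in white and 113, 328 and 149 FPKM in black skin, with a CV of 37.2%. The plus strand alone had 76.5, 80.7 and 176 FPKM in white and 113, 152 and 149 in black skin. The minus strand alone had 148, 139 and 0 FPKM in white and 0, 176 and 0 in black skin. The sum over both strands was present in all 6 samples and the skins overlapped (log2 fold change 0.22, SE 0.86, limma without trend, adjusted p = 0.916 by Benjamini-Hochberg).

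Other loci kept their gaps when summed. The 5 rows at chr5:94861259-94861436, inside the RefSeq lncRNA gene LOC106507545 and including TCONS_00079759, the fourth most abundant row, summed to 0, 96.8 and 361 FPKM in white and 282, 311 and 79.8 in black skin. The 3 rows at chr4:120764259-120764439 summed to 0, 0 and 152 FPKM in white and 230, 84.2 and 0 in black skin. At chr1:157358900-157359085, 3 rows were listed at 0 in white skin and in black skin of pig 1, and summed to 307 and 124 FPKM in black skin of pigs 2 and 3. The 4 plus-strand rows at chr10:28770501-28770684 were listed at 0 in all white samples and summed to 188, 369 and 30.3 FPKM in black skin. No RefSeq gene lies within 10 kb of them. The members among them, TCONS_00010691 and TCONS_00010694, reached the limit through black skin alone, so the difference is a description. Of the members' loci, this was the only one past both thresholds after summing (limma without trend), where 18 of 6743 loci (0.267%) were.

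On the mitochondrial genome, 8 rows, of which 4 are members and TCONS_00116379 is the highest by mean FPKM, lie between positions 720 and 1245. All overlap the tRNA gene KEF22_t01. The 6 plus-strand rows end at position 1245, the base before the rRNA gene KEF22_r02, and the 2 minus-strand rows at 1215. In mammals, the noncoding control region, from which transcription of the mitochondrial genome starts, lies before these genes. Summed, the 8 rows had 154, 556 and 319 FPKM in white and 72.5, 97.9 and 55.4 in black skin. The skins did not overlap, but the difference was not significant (log2 fold change 2.04, SE 0.87, limma without trend, adjusted p = 0.519 by Benjamini-Hochberg). COX1 mRNA, encoded further on, had 10729 to 16432 FPKM in white and 8960 to 12747 in black skin, with overlap.

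**Figure D4:**
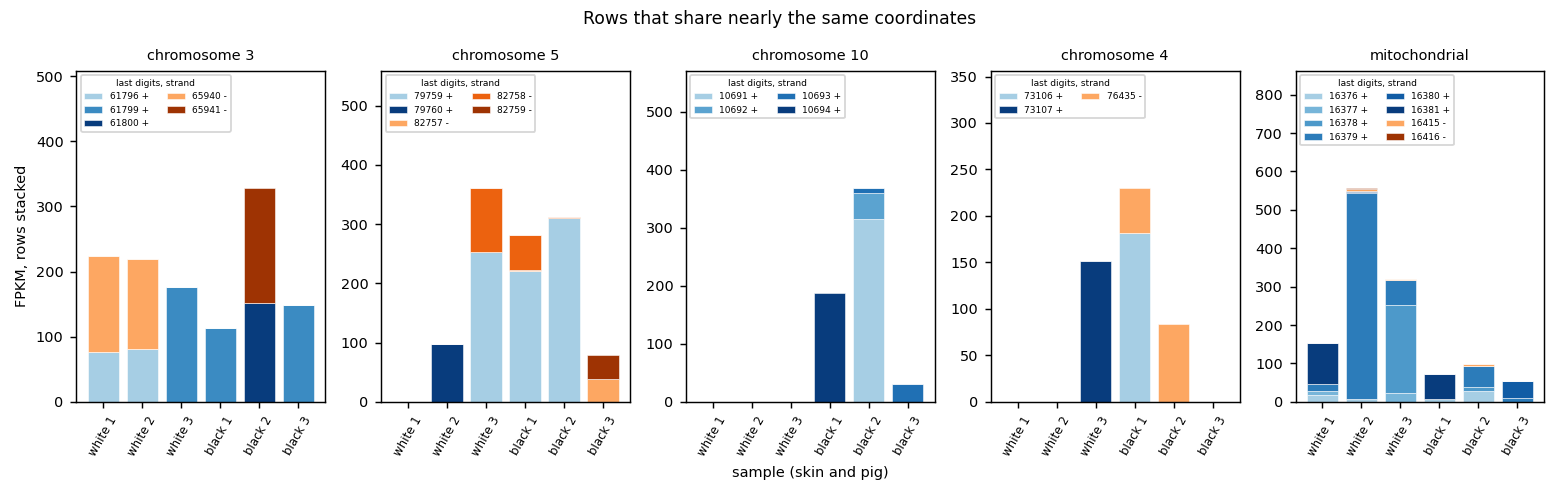
FPKM of rows that share nearly the same coordinates, stacked per sample (horizontal axis, skin and pig), at loci of chromosomes 3, 5, 10 and 4 and of the mitochondrial genome, with plus-strand rows in blue and minus-strand rows in orange. At the chromosome 3 locus every sample has a bar between 113 and 328 FPKM, made of 1 of 3 sets of rows, and at the chromosome 10 locus only black skin has one.

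White and black skin were compared by limma with trend on log2(FPKM + 0.1) over all 7566 lncRNAs. Log2 fold changes are white minus black skin on that scale and depend on the added 0.1 where a sample is listed at 0. Over the members they had a median of 0.08 (41 above and 38 below 0), against -0.14 over all lncRNAs. With quantile normalization and upper-quartile scaling, the members' median was -0.07 and -0.01, so it had no stable sign. With both thresholds, an adjusted p under 0.05 and a log2 fold change beyond 1 in either direction, 10 members were higher and 3 lower in white skin. Over all lncRNAs, 1.33% passed (1.08% higher and 0.251% lower), and of those with a mean of 1 to 10, 8.33%. Of the 13, 3 had a mean of at least 10 FPKM in each skin, but 1 sample carried most of each black mean. Their black values were 4.68, 8.07 and 24.0 FPKM for TCONS_00074600, 0, 122 and 0 for TCONS_00015675, and 1.53, 55.9 and 8.78 for TCONS_00116379. The other 10 of the 13 reached the limit through the skin where they were higher, 5 of them with 0 in all samples of the other skin. Neither their number nor the p-values given for them below are thus support for a difference. With the pig as a block, 14 members were higher and 16 lower in white skin (3.21% of all lncRNAs passed), and all 13 were among them. Limma without trend called no member (lowest adjusted p = 0.108) and 12 lncRNAs in all (0.159%). Before adjustment, 29 members (36.7%) had a p below 0.05 in the fit with trend, against 7.88% of all lncRNAs and 23.8% of those with a mean of 1 to 10. Only 42 of the 79 members had a mean of at least 10 FPKM in each skin. The rest reached the limit through 1 skin, so this share is not support for a difference. With any 1 sample left out, the counts were 3 higher and 0 lower without white skin of pig 3, and 0 higher and 0 or 1 lower without each of the other 5 samples.

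Values that do not overlap between the skins were found for 18 members (22.8%), 11 with white and 7 with black higher. This held for 12.2% of all lncRNAs (6.87% with white and 5.31% with black higher), and for 23% of those with a mean of 1 to 10. Of the 13 members past both thresholds, 5 had skins that did not overlap, 9 were listed at 0 in at least 1 sample, and 4 were under 200 bp. Of the 101 lncRNAs past both thresholds over the whole table, 87 had skins that did not overlap, 72 were listed at 0 somewhere, and 18 were under 200 bp. Non-overlap among those past the thresholds was thus 38.5% for the members and 86.1% for all lncRNAs, and 92% for those with a mean of 1 to 10.

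**Figure D5:**
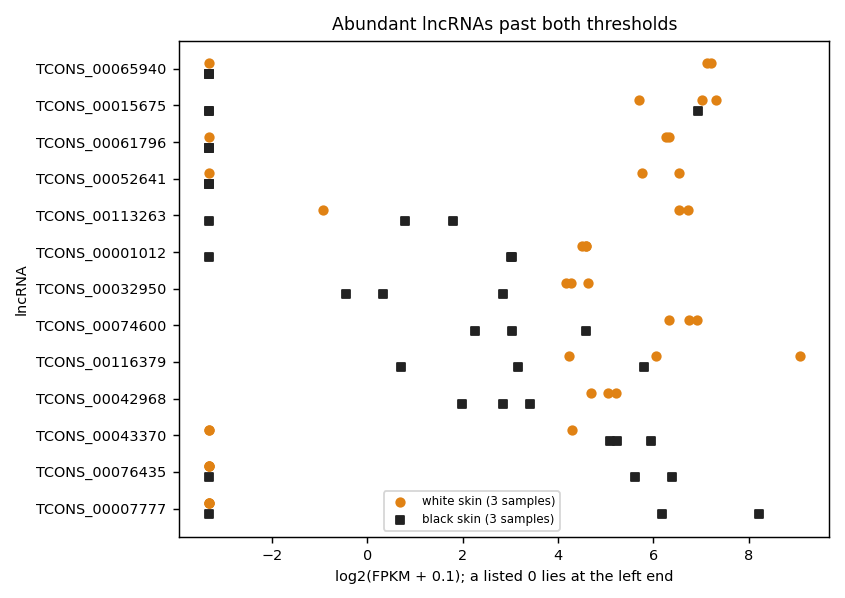
Level of the 13 abundant lncRNAs past both thresholds, as log2(FPKM + 0.1) in each of the 3 white (orange circles) and 3 black samples (black squares), with zeros at the left end and equal values drawn on top of each other. The skins stand apart for TCONS_00074600, TCONS_00042968, TCONS_00032950, TCONS_00001012 and TCONS_00043370, and overlap for the other 8.

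Among those past both thresholds, higher in white skin and without overlap, TCONS_00074600 had the highest level. It lies at chr4:75295842-75296300 on the minus strand, within the RefSeq lncRNA gene LOC100514834, and had 80.2, 107 and 121 FPKM in white and 4.68, 8.07 and 24.0 in black skin. The log2 fold change was 3.37 (SE 0.58, adjusted p = 0.000178 by limma with Benjamini-Hochberg adjustment, and 0.157 without trend). Each white value was over 3 times the highest black value.

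TCONS_00032950, 204 bp inside EXOC6, a gene of the exocyst complex of vesicle docking, had 19.1, 17.8 and 24.6 FPKM in white and 1.16, 7.07 and 0.634 in black skin (log2 fold change 3.44, SE 0.62, limma adjusted p = 0.000346). EXOC6 mRNA itself was at 3.10 ± 0.963 FPKM in white and 3.37 ± 0.886 in black skin (SD, n = 3). The mRNA values of the skins overlapped. TCONS_00001012, which reaches the last base of the RefSeq locus of TSTD3, had 23.9, 23.9 and 22.5 FPKM in white and 8.11, 0 and 7.92 in black skin (log2 fold change 3.65, SE 0.80, limma adjusted p = 0.00519).

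TCONS_00042968 lies inside PDE4D, a cAMP phosphodiesterase gene, and covers the RefSeq lncRNA gene LOC100523871 almost wholly. Its FPKM was 25.6, 37.0 and 33.1 in white and 10.5, 7.09 and 3.85 in black skin (log2 fold change 2.24, SE 0.56, limma adjusted p = 0.0170). PDE4D mRNA had 4.03, 9.95 and 9.87 FPKM in white and 1.38, 2.08 and 3.79 in black skin (log2 fold change 1.52 on log2(FPKM + 0.5), SE 0.44, limma adjusted p = 0.0748, and 0.0308 when blocked by pig). Both the lncRNA and the gene around it were higher in every white sample than in every black sample.

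TCONS_00043370 was the only one of the 3 lower in white skin whose skins did not overlap. It lies almost wholly within EBF1, a transcription factor gene of B cells and adipocytes, and inside the RefSeq lncRNA gene LOC106506547. Its FPKM was 0, 19.4 and 0 in white and 34.1, 61.5 and 37.5 in black skin (log2 fold change -6.21, SE 0.90, limma adjusted p = 1.29e-05). EBF1 mRNA was at 3.19 to 3.98 FPKM in white and 4.26 to 13.0 in black skin, also without overlap (log2 fold change -1.03, SE 0.38, limma adjusted p = 0.128). The sums of adipocyte, fibroblast, endothelial, immune and melanocyte genes given above were all higher in black skin. The part of any cell type in these values was not tested.

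The skins overlapped for the other 8, of which 3 were higher in white than in black skin within each of the 3 pigs. TCONS_00015675, partly within the RefSeq coding gene LOC100521680, had 159, 129 and 51.6 FPKM in white and 0, 122 and 0 in black skin (log2 fold change 6.58, SE 1.09, limma adjusted p = 0.000106), and black skin of pig 2 lay inside the white range. TCONS_00116379 of the mitochondrial genome had 18.6, 537 and 66.2 FPKM in white and 1.53, 55.9 and 8.78 in black skin (limma adjusted p = 0.0137), and most of its level came from white skin of pig 2. TCONS_00113263, on an unplaced scaffold, had 92.9, 106 and 0.428 FPKM in white and 1.62, 3.35 and 0 in black skin (limma adjusted p = 0.00767).

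TCONS_00065940, TCONS_00061796 and TCONS_00052641 were listed at 0 in all black samples and in white skin of pig 3, so no fold was given. The first pair belongs to the chromosome 3 locus whose sum overlapped between the skins. TCONS_00052641 lies almost wholly within MRVI1, a gene of calcium release in smooth muscle, at its edge. It had 54.0 and 93.1 FPKM in white skin of pigs 1 and 2. In the lower direction, TCONS_00007777 had 297 and 72.5 FPKM in black skin of pigs 2 and 3, and TCONS_00076435 had 48.6 and 84.2 FPKM in black skin of pigs 1 and 2. All other samples of both were listed at 0, 1 black sample included. These 5 members reached the limit through 1 skin alone, with 0 in the other, so no p is given. TCONS_00032950, TCONS_00001012, TCONS_00042968, TCONS_00043370 and TCONS_00113263 also had a mean below 10 FPKM in 1 skin. The p-values given for them are therefore a description.

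Coding genes within 10 kb of the members were looked up in RefSeq, which gave 76 genes, of which 53, beside 46 members, could be linked to the mRNA table. None of the 53 was higher and 2, CSGALNACT1 and HOXC10, were lower in white skin, where 2.62% and 3.62% of all mRNAs were (6.24% in all, limma on log2(FPKM + 0.5)). With the pig as a block, PDE4D was higher, and EGR1, HEATR6 and the same 2 genes were lower (9.66% of all mRNAs passed). The median log2 fold change was -0.20 over the 53 and -0.31 over all mRNAs.

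CSGALNACT1, an enzyme of chondroitin sulfate synthesis, had 1.49, 0.904 and 0.696 FPKM in white and 3.07, 4.41 and 7.19 in black skin (log2 fold change -1.78, SE 0.37, limma adjusted p = 0.0330). The member mostly within it, at its edge, is TCONS_00044978. It had 5.47, 4.40 and 4.85 FPKM in white and 10.5, 26.9 and 15.1 in black skin (log2 fold change -1.71, SE 0.56, limma adjusted p = 0.153, and 0.0282 when blocked by pig). Both were higher in every black than in every white sample. TCONS_00044978 had a mean of 4.90 FPKM in white and 17.5 in black skin. It reached the limit through black skin, so its p-values are a description. With 1 sample left out, CSGALNACT1 passed only without black skin of pig 1 (adjusted p = 0.0376) and had an adjusted p of 0.0643 to 0.136 without each of the others. HOXC10, a homeobox gene of posterior body position, had 0.0425, 0.215 and 0.0532 FPKM in white and 2.08, 2.82 and 4.19 in black skin (log2 fold change -2.52, SE 0.32, limma adjusted p = 0.0113, and 0.0537 without white skin of pig 2). TCONS_00080843 lies 9514 bp from it, at HOXC9, and had 12.8, 8.38 and 4.39 FPKM in white and 11.2, 24.2 and 15.3 in black skin, with overlap.

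A pair of members beside the transcription factor genes EGR1 and JUN, TCONS_00055687 and TCONS_00088322, were both lowest in black skin of pig 2. TCONS_00055687 overlaps the edge of EGR1 and had 46.2, 12.6 and 44.4 FPKM in white and 88.7, 0.464 and 149 in black skin. EGR1 mRNA had 45.4, 12.1 and 44.6 FPKM in white and 87.7, 139 and 153 in black skin (log2 fold change -2.06, SE 0.50, limma adjusted p = 0.0504, and 0.0437 when blocked by pig). The lncRNA lay close to the mRNA in 5 samples and far below it in black skin of pig 2. TCONS_00088322, a row of 94 bp at 5201 bp from JUN, had 77.0, 38.7 and 72.0 FPKM in white and 76.4, 2.55 and 159 in black skin, where JUN had 103, 47.0 and 88.0 in white and 99.6, 134 and 195 in black skin. Here too, black skin of pig 2 was the lowest for the lncRNA and the second highest for the gene.

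Single samples also marked other members. Black skin of pig 1 held 77.1% to 97.2% of the FPKM of TCONS_00016557, TCONS_00016556, TCONS_00026134 and TCONS_00051036, with 193 FPKM for TCONS_00016557, which lies in the coding gene LOC100514981 of chromosome 12. In the mRNA table, 26 of 33 keratin and keratin-associated genes that carry a name had their highest value in the same sample (78.8%), against 14.1% of all mRNAs. KRT1 and KRT10 did not, with their highest values in white skin of pig 3 (504 and 105 FPKM). The part of hair follicles in that sample was not tested. Black skin of pig 2 was the highest sample for 24 members and black skin of pig 3 for 6, while the others were the highest for 10 to 15.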

How the data were processed

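The authors mapped strand-specific poly(A) reads to Sscrofa11.1, assembled and filtered lncRNAs, and deposited FPKM values for mRNAs and lncRNAs of 6 samples. Their notes name CASAVA 1.8.2, HISAT2 2.0.4, StringTie 1.3.3 and Cufflinks 2.2.1, and the methods name TopHat for mapping. The tables hold no counts, and the depth of each value is therefore unknown. Both tables were used in full.

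Skins were compared with limma 3.58.1 (R 4.3.3), trend option, on log2(FPKM + 0.1) for lncRNAs and log2(FPKM + 0.5) for mRNAs, over whole tables with Benjamini-Hochberg adjustment. Title numbers pair the skins of each pig. Deviations from the skin means correlated between them across lncRNAs with r = 0.101, 0.148 and 0.132, and the pig was a block in an alternative. Descriptions ran in Python 3.11.15 with NumPy 2.4.6 and pandas 2.3.3. Gene names came from the RefSeq table of Sscrofa11.1, which gives no strand.

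Named lncRNAs were the 15 highest, up to 6 per direction with the largest log2 fold change past both thresholds, the 3 lowest and 3 highest in CV, those with an Ensembl identifier, those nearest the limit, and the longest and shortest. Others were named after their values were seen. Members and lists were chosen with earlier results of these data known. Alternatives were other pseudocounts, scalings, filters and limits, no trend, the block and leaving out each sample. Summing of overlapping rows, the robust option and the limit of 200 bp were added after seeing the data.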

Additional observations from a re-analysis of the deposited data

How the results depend on the processing

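The counts of members past both thresholds depended strongly on how the spread was modelled. Higher in white skin were 10 members, against 6 with a pseudocount of 0.5, 1 with a pseudocount of 1, 4 with limma's robust option, 0 without trend, 0 with near-identical rows summed and no trend, 6 for the 54 members with a median FPKM of at least 10, and 0 to 3 with 1 sample left out. Lower were 3, against 1 with a pseudocount of 1, 1 with the robust option, 0 without trend, 1 with rows summed and no trend, 17 before adjustment, 1 by median FPKM, 1 among members of at least 200 bp, and 0 to 1 with 1 sample left out. The locus lower with rows summed was that of TCONS_00010691 on chromosome 10, which was not among the 3. With the pig as a replicate block, which the pairing of the skins allows, 16 were lower and 14 higher. The prior degrees of freedom were 49.1 with trend, 14.9 without and infinite with the block and trend. Under scalings and filters the counts were 7 to 10 higher and 3 lower.

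Of the neighbouring mRNAs, 0 were higher and 2 lower, against 1 and 1 with quantile normalization, 1 and 4 with the replicate block, 1 lower among overlapping genes only, and 0 to 0 higher and 0 to 3 lower with 1 sample left out. Among single log2 fold changes, none changed sign in any alternative, 126 lost and 5 gained the threshold, and 119 kept their side. Most of these were of members past both thresholds, 5 of them with 0 in all samples of 1 skin. Their sign could hardly change, so its constancy is not support.

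The members' mean share in white skin, 37.8%, was 53.5% with TCONS_00077941 out of the total and 66.5% with it among the members (33.3% to 45.3% with 1 sample left out). In black skin, 50.7% became 45.5% at a limit of 20 FPKM, 42.1% by median FPKM and 38.6% from 200 bp on (48.6% to 52.2% with 1 sample left out). The median CV of 68.0% was 40.5% within white skin and 43.3% by median FPKM (58.7% to 69.2% with 1 sample left out), and the median span of 855 bp was 1598 bp by median FPKM. The cause of these shifts was not tested. Without fragment counts, a listed 0 cannot be read as absence, and the error of short rows cannot be set apart from their spread.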
